A study of Homo sapiens with 4 samples.

Results

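GADD45A, PLK2, PLK3, BTG2 and SFN are genes of cell cycle and growth control with p53 response elements (REs), and the occupancy of these REs by p53 is described here. Membership was set by gene name, which gave 5 of 20163 protein-coding genes. A peak was assigned to a gene when its summit lay in the gene body or within 25 kb of it. The study's list of 20-bp REs with WT p53 binding, of which 1356 were used here, names these genes at 6 REs, a pair of them for GADD45A and 1 for each of the others. The list gives the function of GADD45A, PLK2 and SFN as cell cycle arrest, that of BTG2 as negative regulation of cell proliferation and that of PLK3 as negative regulation of apoptosis.

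ChIP-seq, in which DNA bound by p53 is precipitated from cross-linked chromatin and sequenced, was carried out in the human lung cancer line H1299, which lacks endogenous p53. All libraries came from stable lines expressing the tetracycline (Tet) repressor, in which Tet switches on an introduced p53 gene. Either WT p53 or K120R p53 was carried by the cells, the latter with arginine in place of Lys120, a residue of the surface that contacts DNA. Each form was profiled without treatment and after 24 h of Tet, with 1 library per condition and 4 libraries in all. The sample labels give the Tet dose as 1 µg/µl and the methods as 1 µg/ml. All cells were cross-linked with formaldehyde, and p53 was precipitated with the FL393-x antibody. As p53 is expressed from an introduced construct, its level is that of the construct and not of an endogenous gene.

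When DNA is damaged, p53 binds its REs and switches on genes that hold the cell before DNA replication or before mitosis. GADD45A disrupts the CDK1 and cyclin B complex, SFN (14-3-3 sigma) keeps that complex in the cytoplasm, and BTG2 restrains proliferation as a partner of the CCR4-NOT deadenylase. PLK2 and PLK3 are stress-responsive kinases of the polo-like family.

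The p53 consensus RE consists of a pair of 10-bp half-sites, each with a CWWG core (W is A or T) flanked by purines on its 5′ side and pyrimidines on its 3′ side. The listed REs are shown because each lies under a WT peak described below, with capitals at the bps on either side of each core (positions 3, 8, 13 and 18). Numbering starts with 1 at the 5′ end of the listed strand.
GADD45A RE 1: gaAcatgTctaaGcatgCtg
GADD45A RE 2: aaAcatgTctgtActttGaa
PLK2 RE: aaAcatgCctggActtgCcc
PLK3 RE: taAcatgCccggGcaaaAgc
BTG2 RE: tgGcatgTccagGcaggGcc
SFN RE: ggAcatgTctggGctaaTgc

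All coordinates are 1-based on GRCh37/hg19, with genes from GENCODE release 44. GADD45A RE 1 lies at chr1:68152458-68152477 in intron 3 of GADD45A, 1583 bp downstream of the transcription start. GADD45A RE 2, at chr1:68191071-68191090, lies 37063 bp beyond the 3′ end of GADD45A in an intron of GNG12, a G protein subunit gene, and therefore outside the 25-kb window. The PLK2 RE (chr5:57758101-57758120) is intergenic, 2144 bp upstream of PLK2. The PLK3 RE (chr1:45265596-45265615) is intergenic too and lies 443 bp upstream of PLK3. BTG2 carries its RE in intron 1 (chr1:203275811-203275830), 1201 bp downstream of the start. The SFN RE (chr1:27187821-27187840) lies in intergenic sequence 1809 bp upstream of SFN. The reference holds the listed sequence on its plus strand at GADD45A RE 1, GADD45A RE 2 and PLK3, and on its minus strand at PLK2, BTG2 and SFN. The same REs are shown next in capitals with 20 bp of reference sequence on either side, on the strand as listed, so that the surroundings of each site can be read.
GADD45A RE 1 with flanks: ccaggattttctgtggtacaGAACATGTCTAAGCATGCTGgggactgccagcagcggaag
GADD45A RE 2 with flanks: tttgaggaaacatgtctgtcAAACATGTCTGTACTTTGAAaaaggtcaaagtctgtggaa
PLK2 RE with flanks: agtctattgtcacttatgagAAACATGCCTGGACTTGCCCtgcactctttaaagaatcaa
PLK3 RE with flanks: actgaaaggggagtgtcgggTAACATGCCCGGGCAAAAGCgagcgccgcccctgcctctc
BTG2 RE with flanks: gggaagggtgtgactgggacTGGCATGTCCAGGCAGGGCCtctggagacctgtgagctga
SFN RE with flanks: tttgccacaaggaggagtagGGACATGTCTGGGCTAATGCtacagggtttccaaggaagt

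The peak lists differed in size, with 4326 peaks for WT p53 after Tet, 488 for WT p53 without Tet, 2023 for K120R p53 after Tet and 12 for K120R p53 without Tet. ChIP depth ranged from 33059650 to 34857204 tags per library. In peak calling, each tag of Tet-treated WT cells counted as a fragment of 170 bp. In the remaining libraries each tag counted as a fragment of 64 to 68 bp. These lengths are below the 75 bp of the tags, so they are settings of peak calling and not real fragment lengths. Fold enrichments (the pileup of fragments at the summit over the local background, each with 1 added) are thus not on 1 scale across lists. They are therefore given with their rank in their own list, where rank 1 is the highest. With no replicates, differences between libraries were not tested, and every interval below covers counting error only.

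After Tet, WT p53 had a peak at each of the 5 genes, where 19.1% of all protein-coding genes had at least 1. Each of the 5 is named in the study's list of REs with WT binding, so this count was nearly fixed beforehand. In untreated cells WT p53 occupied GADD45A, PLK2 and PLK3, or 3 of the 5, against 2.59% of all genes. K120R p53 had a peak after Tet at GADD45A and PLK2, or 2 of the 5, against 9.46% of all genes. Without Tet, K120R p53 had a peak at 0 of the 5 and at 0.0347% of all genes. The windows searched were shorter for these genes than for most, with a median of 54112 bp against 77219 bp over all protein-coding genes. Peaks of GADD45A and PLK2 were thus present in 3 libraries each, those of PLK3 in the WT libraries, and those of BTG2 and SFN in the Tet-treated WT library.

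**Figure D1:**
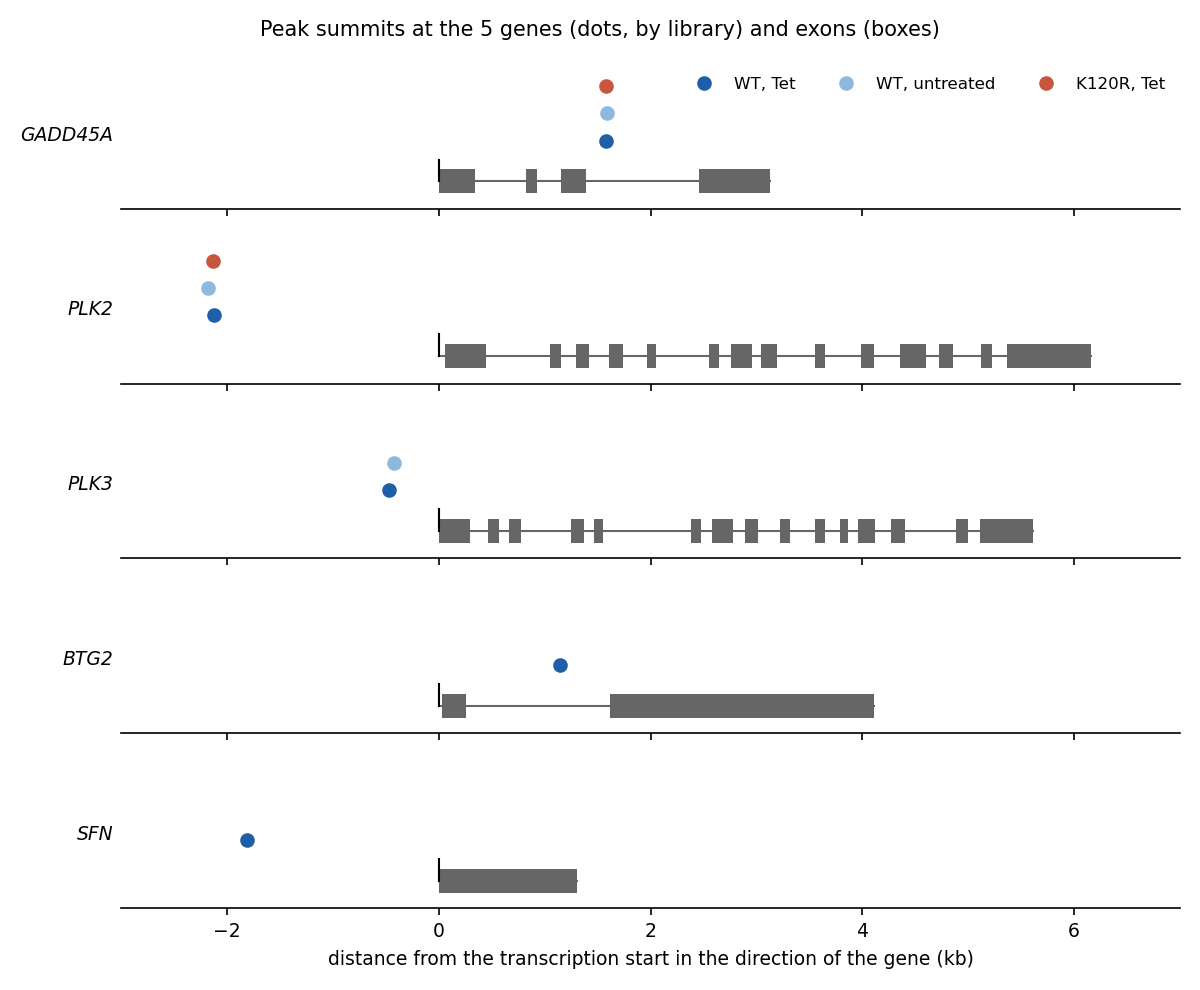
Peak summits (dots, coloured by library) and exons (boxes) of the 5 genes, with the distance from the transcription start in kb on the horizontal axis and upstream to the left. Summits of different libraries at the same gene lay within 60 bp of the WT summit after Tet, and K120R p53 without Tet had none.

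Counted by RE, a WT peak after Tet overlapped all 6 REs of these genes, as it did 98.4% of all listed REs, which is fixed by how the list was made. Without Tet, WT peaks overlapped 3 of the 6, against 23.5% of all listed REs. K120R peaks after Tet overlapped 3 of the 6 (both GADD45A REs and the PLK2 RE), against 40.0%, and K120R peaks without Tet overlapped 0 of the 6, against 0.0737%. Of the 5 WT peaks assigned to the genes after Tet, 2 were overlapped by a K120R peak, against 25.2% of all WT peaks.

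GADD45A, the inhibitor of CDK1 and cyclin B, had WT fold enrichments at RE 1 of 39.5 after Tet (rank 102 of 4326) and 20.3 without Tet (rank 32 of 488). For K120R p53 after Tet the fold enrichment was 19.1 (rank 46 of 2023), and no peak was called without Tet. By fold enrichment, GADD45A RE 1 therefore stood near the top of every list in which it was called, at percentiles of 97.7, 93.6 and 97.8. By pileup the percentiles were 98.2, 83.6 and 96.3, lowest for WT p53 without Tet. Its summit counts were 203 fragments for WT p53 after Tet (exact Poisson 95% interval 176 to 233), 38 for WT p53 without Tet (26.9 to 52.2) and 43 for K120R p53 after Tet (31.1 to 57.9). The WT count after Tet lay above the other counts, whose intervals overlapped each other. It was built from longer fragments, which raise the count over a summit, and their part in the difference was not tested. The fragment lengths used in peak calling were similar for the untreated WT and Tet-treated K120R libraries. Per tag, the K120R count was 1.07 times the untreated WT count (95% interval 0.677 to 1.71, exact binomial). Over the 208 listed REs called in all of these 3 lists, the median of this ratio was 1.17 (quartiles 0.810 and 1.72). The 3 summits lay 0.50 bp (WT, Tet), 7.50 bp (WT, untreated) and 8.50 bp (K120R, Tet) from the centre of the RE. Over all listed REs with a WT peak after Tet the median distance was 12.5 bp (quartiles 5.50 and 24.5), and GADD45A RE 1 and SFN (0.50 bp) were the closest members. For WT p53 after Tet the distance was 18.5 bp at PLK2, 24.5 bp at PLK3, 37.5 bp at GADD45A RE 2 and 60.5 bp at BTG2, the last 2 beyond the upper quartile. In untreated WT cells it was 41.5 bp at PLK2 and 22.5 bp at PLK3, and for K120R p53 it was 5.50 bp at PLK2 and 77.5 bp at GADD45A RE 2.

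PLK2, a polo-like kinase that acts in centriole duplication, had a WT fold enrichment of 61.4 after Tet (rank 20 of 4326) and of 13.4 without Tet (rank 79 of 488). For K120R p53 after Tet it was 10.3 (rank 336 of 2023). The WT site after Tet was the strongest of the 5 genes, and K120R p53 gave PLK2 a lower rank than GADD45A. Fragment counts at PLK2 were 253 for WT p53 after Tet (223 to 286), 34 without Tet (23.5 to 47.5) and 27 for K120R p53 after Tet (17.8 to 39.3). In the WT lists the order of GADD45A RE 1 and PLK2 changed with Tet, with PLK2 ahead after Tet and GADD45A ahead in untreated cells by fold enrichment, while the intervals of their untreated counts overlapped. Per tag, the K120R count at PLK2 was 0.753 times the untreated WT count (0.437 to 1.29), an interval that holds 1. Among 541 listed REs with both WT and K120R peaks after Tet, the K120R to WT ratio of fold enrichment was 0.168 at PLK2, against 0.483 at GADD45A RE 1 and a median of 0.458 (quartiles 0.303 and 0.692). The WT value is the denominator of this ratio, and its median fell from 0.893 in the lowest quartile of WT fold enrichment to 0.309 in the top quartile, which holds PLK2 and both GADD45A REs. Among the 242 REs of the top quartile with a K120R peak, the K120R value of PLK2 was close to the median of 10.4, and that of GADD45A RE 1 stood at percentile 86.8. The untreated to Tet ratio of WT fold enrichment was 0.219 at PLK2 and 0.512 at GADD45A RE 1, with a median of 0.276 in the top quartile (quartiles 0.203 and 0.379).

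PLK3, a kinase activated by DNA damage and other stress, had a WT fold enrichment of 21.5 after Tet (rank 394 of 4326) and of 11.1 without Tet (rank 120 of 488). No K120R peak was called at PLK3 with or without Tet. The fragment count for WT p53 was 110 after Tet (90.4 to 133) and 19 without Tet (11.4 to 29.7). PLK3 was thus occupied by WT p53 in untreated cells and was the 1 gene of the 3 with such occupancy where K120R p53 had no peak. Of all listed REs with WT peaks in both conditions, 65.4% had a K120R peak (208 of 318, exact Clopper-Pearson 95% interval 59.9 to 70.6%). The untreated to Tet ratio of WT fold enrichment at PLK3 was 0.515, with a median of 0.367 in its quartile of WT fold enrichment (quartiles 0.312 and 0.493). The smallest K120R peak of Tet-treated cells held 8 fragments and the median K120R peak held 16. PLK3 is thus without a K120R peak only as far as peak calling on 68-bp fragments can show. The WT count after Tet was built from 170-bp fragments.

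BTG2, the antiproliferative partner of the deadenylase, had a WT fold enrichment of 11.2 after Tet (rank 1254 of 4326), with 42 fragments (30.3 to 56.8). SFN, the 14-3-3 protein, had 5.06 (rank 3472 of 4326), with 24 fragments (15.4 to 35.7). Neither gene had a peak in any of the other 3 libraries. Their WT counts were built from 170-bp fragments, against 68 bp for K120R p53 after Tet, whose median peak held 16 fragments. As at PLK3, the lack of a K120R peak means only that none was called. SFN was the weakest of the 5 genes, and with its −log10 q of 7.88 it was lost when a −log10 q of at least 10 was required. By fold enrichment after Tet the order for WT p53 was PLK2, GADD45A, PLK3, BTG2 and SFN, and their fragment counts fell in the same order. Among neighbours in this order, the count intervals of PLK2 and GADD45A overlapped, as did those of BTG2 and SFN, while the interval of PLK3 lay apart from both of its neighbours.

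**Figure D2:**
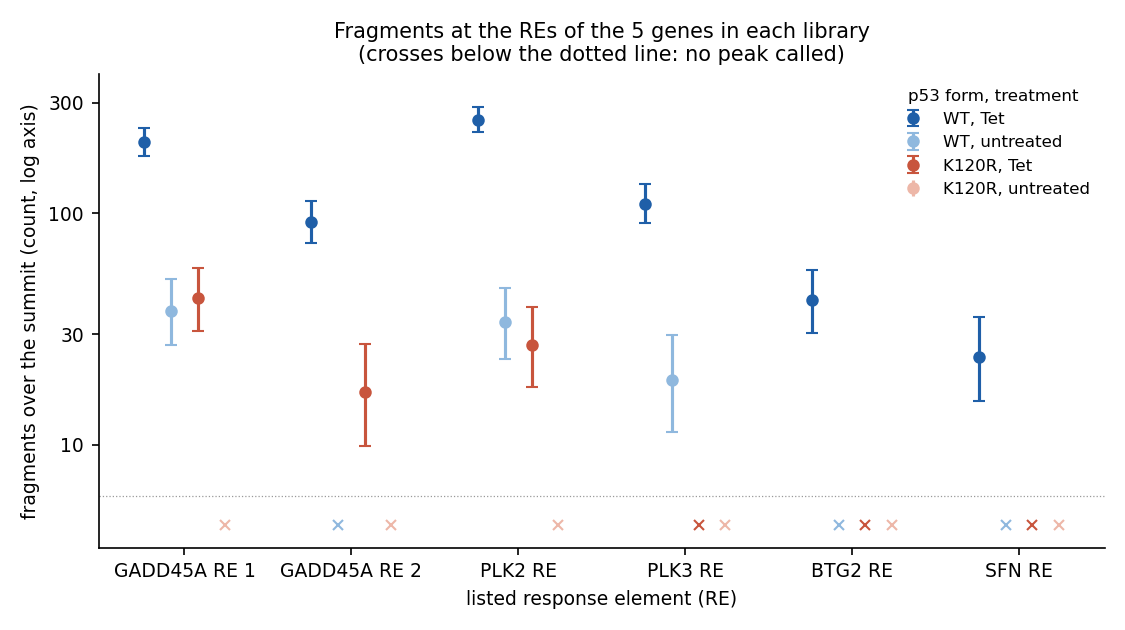
Fragments over the peak summit at each RE (vertical log axis, count) in each library, with exact Poisson 95% intervals as bars and crosses where no peak was called. The Tet-treated WT library runs from 24 fragments at SFN to 253 at PLK2, and K120R p53 after Tet has counts of 43, 17 and 27 at the REs of GADD45A and PLK2.

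The 6 REs were placed among all listed REs with a peak in the same list. For WT p53 after Tet, the PLK2 RE ranked 20 of 1334, GADD45A RE 1 ranked 96, GADD45A RE 2 ranked 193, and the PLK3, BTG2 and SFN REs ranked 344, 826 and 1286. The members thus spanned nearly the whole range of WT occupancy, from PLK2 near its top to SFN near its foot. For K120R p53 after Tet, GADD45A RE 1 ranked 38 of 543, the PLK2 RE 186 and GADD45A RE 2 230. In the untreated WT list GADD45A RE 1 ranked 30 of 318, the PLK2 RE 67 and the PLK3 RE 104.

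**Figure D3:**
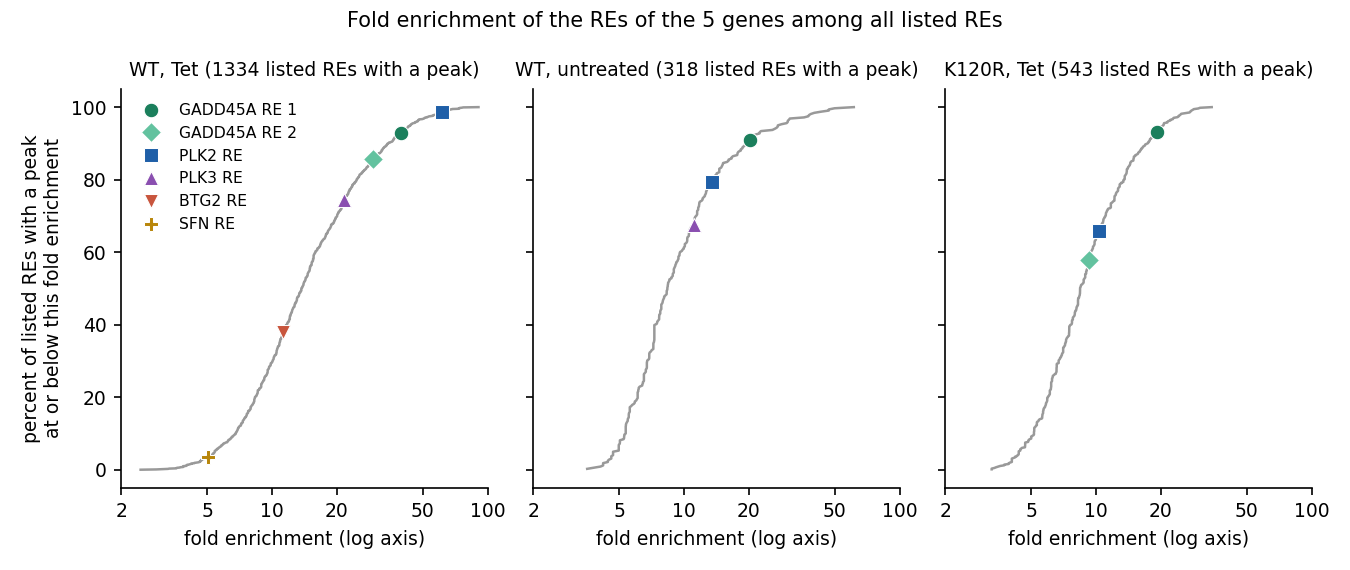
Share of listed REs with a peak (vertical axis, percent) at or below a given fold enrichment (horizontal log axis) in 3 libraries, with the REs of the 5 genes as symbols. For WT p53 after Tet the symbols run from 3.67% at SFN to 98.6% at PLK2, and for K120R p53 GADD45A RE 1 stands at 93.2%.

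GADD45A RE 2, beyond the 25-kb window, reached 29.5 for WT p53 after Tet (rank 211 of 4326) and 9.28 for K120R p53 (rank 446 of 2023). Neither p53 form had a peak there without Tet. WT p53 gave 92 fragments (74.2 to 113) and K120R p53 gave 17 (9.90 to 27.2). The WT peak at GADD45A RE 2 ranked above that of PLK3 by fold enrichment and below it by fragments (92 against 110), with overlapping count intervals, and unlike PLK3 it was not called in untreated cells. Of the 334 listed REs in the top quartile of WT fold enrichment, 66.2% had an untreated WT peak (60.8 to 71.2%). As listed, GADD45A RE 2 departs from the consensus at 5 of 20 bases, all in its second half-site, and its score against the base frequencies of all listed REs was at percentile 5.83.

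A search of the 151 bp centred on the WT summit, chosen after the data were seen, found that GADD45A RE 2 lies in a series of 4 half-sites without mismatch, 1 of which is shared with the listed RE. They extend over chr1:68191016-68191080 with 12, 10 and 3 bp between them, and the half-site nearest to the summit is centred 0.50 bp from it. The plus strand is shown with these half-sites in capitals.
GADD45A RE 2 half-sites (chr1:68191006-68191090): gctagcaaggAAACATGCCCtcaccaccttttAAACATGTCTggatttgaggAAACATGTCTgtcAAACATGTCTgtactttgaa
The half-site pattern reads the same on both strands. Of all WT peaks after Tet, 0.277% (12 of 4326, Clopper-Pearson 95% interval 0.143 to 0.484%) had at least 4 such half-sites in windows of this length, and their median fold enrichment was 31.1. Half-site counts of 0 and 1 were found in 57.6% and 33.0% of the peaks, with medians of 6.79 and 8.41. A pair of half-sites without mismatch and with a spacer of 1 to 13 bp was present in 2.31% of WT peaks (100 of 4326). At GADD45A RE 2 the pair with a 3-bp spacer had 0 G/C bps at its positions 3, 8, 13 and 18. The 151 bp around the K120R summit (chr1:68191083-68191233) began beyond the last of these half-sites and held 0 half-sites without mismatch. The K120R peak itself was 517 bp long, overlapped the listed RE and had 17 fragments at its summit.

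At the other genes, allowing a spacer changed less. The window around the PLK2 summit held 2 half-sites without mismatch, which are adjacent and form the listed RE, and those of GADD45A RE 1 and SFN held 1 each. The windows of PLK3 and BTG2 held 0. At PLK3 the best pair with a spacer had 3 mismatches, against 4 for the listed RE, and at BTG2 it had 4, against 3. An adjacent pair without mismatch, as at PLK2, was found in 5.64% of WT peaks, whereas in 22.1% of them, those of PLK3 and GADD45A RE 2 included, every adjacent pair had at least 4 mismatches.

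The 6 REs differed in their match to the consensus. The PLK2 RE had 0 mismatches, GADD45A RE 1 had 1, SFN had 2, BTG2 had 3, PLK3 had 4 and GADD45A RE 2 had 5, where the median over all listed REs was 2 (quartiles 1 and 3). Core mismatches were absent from GADD45A RE 1 and PLK2, and the other 4 REs had 1 each, in their second half-site in every case. WT fold enrichment did not follow the mismatches in order, since GADD45A RE 2 and PLK3 had more mismatches than BTG2 and SFN and higher values. The percentile of the matrix score was 91.8 for PLK2, 58.8 for GADD45A RE 1, 36.4 for BTG2, 18.4 for SFN, 9.66 for PLK3 and 5.83 for GADD45A RE 2. Between the REs of the related kinases, 12 of 20 bases were identical, and the substitutions from the PLK2 RE to the PLK3 RE were A1T, T10C, A13G, T15A, T16A, G17A, C18A and C19G. All but A1T and T10C fall in the second half-site. The pairs with most identical bases among the members, 14 of 20, were PLK2 with GADD45A RE 2 and PLK3 with SFN as listed, and PLK2 with BTG2 when either is read on its other strand.

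At positions 3, 8, 13 and 18, GADD45A RE 1, PLK2 and PLK3 had 2 G/C bps each, BTG2 had 3, and GADD45A RE 2 and SFN had 1. The median over all listed REs was 2 as well. The members were set beside listed REs that had a WT peak after Tet, the same number of G/C bps and the same quartile of WT fold enrichment. With 2 G/C bps in the top quartile, as at GADD45A RE 1 and PLK2, 85 of 123 REs had a K120R peak (69.1%, 60.1 to 77.1%), as did both members. With 2 G/C bps in the next quartile, as at PLK3, the share was 24.4% (31 of 127, 17.2 to 32.8%), and PLK3 had none. The upper edge of that quartile was a fold enrichment of 21.9, close to the 21.5 of PLK3. For BTG2, with 3 G/C bps in the second-lowest quartile, it was 16.9% (13 of 77, 9.31 to 27.1%), and for SFN, with 1 in the lowest, it was 27.4% (23 of 84, 18.2 to 38.2%), and neither had a K120R peak. GADD45A RE 2, with 1 G/C bp in the top quartile and a K120R peak, belongs to a class in which 84.1% had one (90 of 107, 75.8 to 90.5%). In these classes, presence or absence of a K120R peak at each of the 6 REs was the more frequent outcome. The same held for the quartile of WT fold enrichment alone, with K120R peaks at 72.5, 37.7, 32.0 and 20.2% of REs from the top quartile down. By G/C bps alone, with K120R peaks at 55.7% of REs with 1, 34.3% with 2 and 18.3% with 3, GADD45A RE 1, PLK2 and SFN had the less frequent outcome. For PLK3 the outcome also turned with untreated occupancy: of listed REs with 2 G/C bps and WT peaks both with and without Tet, 60.8% had a K120R peak (79 of 130, 51.8 to 69.2%). Of listed REs with a WT peak after Tet and none without, at any number of G/C bps, 32.8% had one (333 of 1016, 29.9 to 35.8%). GADD45A RE 2, with a K120R peak, had the less frequent outcome among these.

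**Figure D4:**
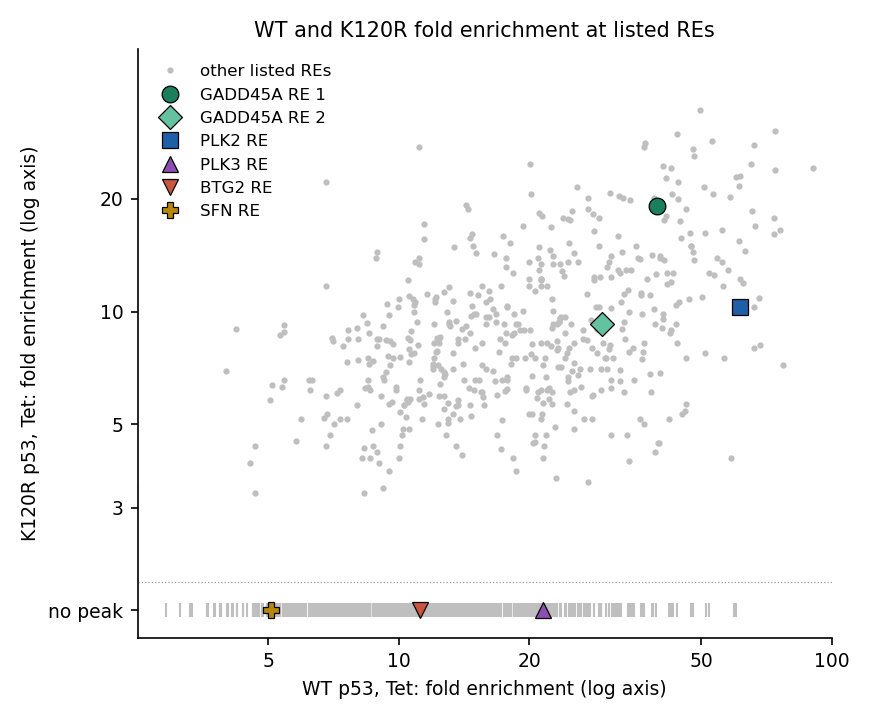
WT fold enrichment after Tet (horizontal log axis) and K120R fold enrichment after Tet (vertical log axis) at listed REs with a WT peak, with REs without a K120R peak below the dotted line. PLK2 is at 61.4 and 10.3, GADD45A RE 1 at 39.5 and 19.1 and GADD45A RE 2 at 29.5 and 9.28, and PLK3, BTG2 and SFN had no K120R peak.

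Most sequences resembling the consensus in the windows of these genes had no peak. The 270326 bp of the 5 windows together held 87 stretches of 20 bp with up to 3 mismatches, and 5 of them lay under a WT peak after Tet. Of the 9 with up to 2 mismatches, 3 lay under a WT peak, at GADD45A, PLK2 and SFN. Both stretches with up to 1 mismatch, the listed REs of GADD45A and PLK2, were occupied. Within 75 bp of a summit, a stretch with up to 3 mismatches was found in 77.9% of all WT peaks, and 1 with up to 2 in 51.9%.

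Beyond the windows, the nearest WT peak to GADD45A after Tet was the peak at RE 2. Those nearest to BTG2, SFN and PLK2 were 303, 318 and 461 kb away, at ranks 228, 4129 and 2454 of 4326. A peak 303 kb from BTG2 was also called for K120R p53 (rank 337 of 2023) and for WT p53 without Tet (rank 103 of 488).

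The census of p53 targets in the study's source data labels 14 genes other than the members as cell cycle arrest genes. After Tet, WT p53 had a peak at 12 of them (85.7%, against 19.1% of all genes) and K120R p53 at 10 (71.4%, against 9.46%), and untreated WT cells had one at 5 (35.7%, against 2.59%). K120R peaks were thus called at 10 of these 14 genes and at 2 of the 5 members. Over genes with a WT peak after Tet, the median of the strongest fold enrichment was 21.5 for the members, 14.7 for these 12 genes and 8.01 for all 3853 genes. The members are all named in the list of REs with WT binding, which was not required of all genes. Of genes with several peaks the strongest is given. The highest WT values were at ZMAT3 (53.5), a zinc finger RNA-binding protein, CDKN1A (49.7), the CDK inhibitor p21, and BTG3 (rank 294 of 4326), a relative of BTG2. They were followed by PARD6G (20.1), SESN1 (16.6), GNAI1 (14.8), E2F7 (14.6), CCNG1 (14.5) and MCC (7.63), with NUPR1 (6.08), IER5 (5.43) and BCL6 (4.19) at the end. CDKN1A held rank 1 of the K120R list, above GADD45A at rank 46, while ZMAT3 held rank 36 for WT p53 and rank 200 for K120R p53. NUPR1 was at rank 2806 of 4326 for WT p53 and 116 of 2023 for K120R p53, and IER5 was at 3200 and 469. ZNF385A had a K120R peak (rank 1514) and no WT peak, and RBM38 had none.

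Relatives of the members were counted in the same way. Of 16 genes of the same families, WT p53 had a peak after Tet at 3, a share of 18.8% near the 19.1% of all genes. K120R p53 after Tet had a peak at 3 too, against 9.46% of all genes, and WT p53 without Tet at 1, against 2.59%. The K120R count was 1 with a 10-kb window (6.97% of all genes) or a −log10 q of at least 10 (3.52%). The untreated WT count was 0 at a −log10 q of at least 5 or 10 and at a fold enrichment of at least 5. GADD45B and GADD45G, the paralogs of GADD45A, had no peak, nor did any of the 6 other 14-3-3 genes beside SFN. Among polo-like kinases, PLK1, which drives entry into mitosis, had both a WT peak (rank 1227 of 4326) and a K120R peak (rank 69 of 2023), and PLK5 had a K120R peak alone (rank 1197). BTG4 had a WT fold enrichment of 43.0 (rank 75) and no K120R peak, and BTG3 had both (ranks 294 and 1630). The WT value at BTG4 was above those of BTG2 and GADD45A.

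Of 15 genes of the G1/S and G2/M engine, WT p53 had a peak after Tet at 5 (33.3%, against 19.1% of all genes). K120R p53 after Tet had a peak at 3 (20.0%, against 9.46%), and WT p53 without Tet at 2 (13.3%, against 2.59%). With a 10-kb window these counts were 2, 1 and 1, against 13.9, 6.97 and 1.81% of all genes. At a −log10 q of at least 10 the WT count after Tet was 3, against 13.8% of all genes. WEE1, the kinase that inhibits CDK1, was at rank 220 of 4326 for WT p53 and 337 of 2023 for K120R p53. These WEE1 summits lay 36479 bp (WT) and 36478 bp (K120R) downstream of its start. CDK1, the target of GADD45A and SFN, had an upstream peak at rank 363 for WT p53 and 74 for K120R p53. PCNA, the replication clamp that GADD45A binds, was at ranks 1186 and 1311, while CDK6 (rank 2719) and CDC25A (rank 4112) had WT peaks alone. K120R p53 without Tet had no peak at any gene of these lists.

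**Figure D5:**
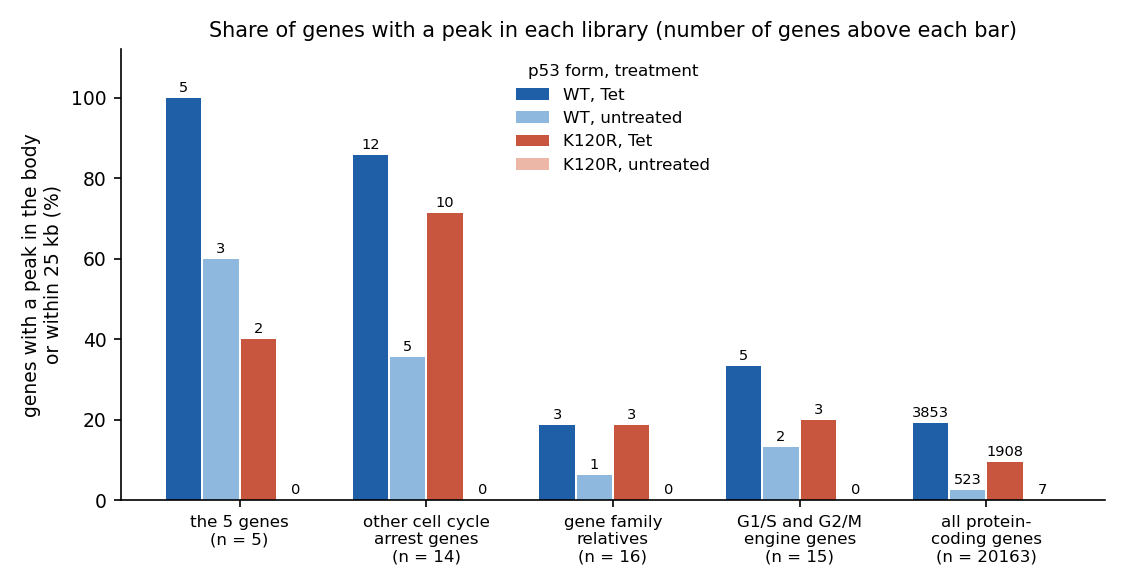
Share of genes with a peak in the body or within 25 kb (vertical axis, percent) for the 5 genes and 3 further lists beside all protein-coding genes, with a bar per library and the number of genes above it. K120R p53 after Tet had a peak at 2 of the 5 genes and at 10 of the 14 other cell cycle arrest genes.

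The listed REs most like each member were found among those called in the same libraries, by the Euclidean distance between percentiles of fold enrichment. GADD45A RE 1 was nearest to the REs of GDF15 (2.30 percentile points) and IFNGR2 (3.11), and PLK2 to those of SMEK1 (2.47) and LALBA (5.07), among 206 REs over 3 libraries. For PLK3 they were EDN2 (2.52) and HGFAC (3.24), among 109 REs over the 2 WT libraries. GADD45A RE 2 was nearest to BBS9 (0.208) and COMMD1 (2.28), among 332 REs over the Tet-treated libraries. BTG2 and SFN were compared among 682 REs over 1 library, which left KIAA0754 (0) and BMPER (0.0462) nearest to BTG2 and TLK1 and PLXNB1 (0.601 each) nearest to SFN.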

How the data were processed

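Reads of 75 bp were aligned to GRCh37/hg19 with BWA-MEM by the authors. They called peaks per library, not on pooled samples, with MACS 2.1.1.20160309 and a matching input control, keeping 1 tag per position and peaks up to a q-value of 0.05. The pileup deposited by the authors is a signal height, the fragments over the summit after scaling the larger of ChIP and input down. The fold enrichment they deposited is the ratio of this pileup to the local background, each with 1 added: the background solved with this form gave back the deposited −log10 p within 0.02 in 6710 of 6849 peaks, and without the 1 in 1 peak. Their p-values and q-values were deposited on the −log10 scale. Dividing the pileup by the scaling factor gave whole fragments, within 0.02, in all peaks. The 3 kinds of peak file deposited for a library held the same peaks.

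RE positions, sequences and functions came from the study's source data, and none of its values were used. Peaks overlapped an RE with at least 1 bp. Mismatches were counted against the consensus over 20 bp. The matrix score sums log-odds of base frequencies over the listed REs, read on both strands. Intervals are exact Clopper-Pearson or Poisson intervals at 95%. With 1 library per condition no test was made.

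Named were the 5 members, the genes with a peak from each further list (at most 12, by WT fold enrichment) and the 2 nearest REs for each member RE. Genes without a peak were named after their values were seen. Peaks beyond the window of PLK3 are not reported here. The members and lists were chosen with earlier results of these data known. Alternatives were −log10 q of at least 5 or 10, fold enrichment of at least 5, windows of 10 and 50 kb, summits within 100 bp of an RE or 200 bp of each other, overlap of 50%, pileup in place of fold enrichment, and REs found in the reference. The search and overlap steps were tested on simulated data. Computations used Python 3.11.15 with pandas 2.3.3, pysam 0.24.0, scipy 1.17.1 and numpy 2.4.6, and plots were drawn with matplotlib 3.10.9.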

Additional observations from a re-analysis of the deposited data

How the results depend on the processing

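Counts of the members, their REs and shared peaks, and of the other cell cycle arrest genes, stayed within 1.5 times their main value under the alternatives tried, although SFN lost its WT peak at a −log10 q of at least 10, which left 4 of the 5 genes and 5 of the 6 REs. At that threshold the other cell cycle arrest genes numbered 10 with a WT peak and 7 with a K120R peak. Relatives and engine genes, rerun after seeing the data, moved more. Relatives with a K120R peak numbered 1 with a 10-kb window or at a −log10 q of at least 10, and the 1 with an untreated WT peak was lost at every stricter threshold. Engine genes with a WT peak after Tet numbered 2 with a 10-kb window and 3 at a −log10 q of at least 10, and those with an untreated WT or a K120R peak numbered 1 each with a 10-kb window. Pileup in place of fold enrichment changed the percentiles. For WT p53 after Tet they became 98.2 (GADD45A RE 1), 88.8 (GADD45A RE 2), 92.0 (PLK3), 63.5 (BTG2) and 29.4 (SFN). Without Tet they became 83.6 (GADD45A RE 1), 79.9 (PLK2) and 59.8 (PLK3). For K120R p53 they became 96.3 (GADD45A RE 1), 57.0 (GADD45A RE 2) and 85.7 (PLK2), so that PLK2 stood above GADD45A RE 2 by either measure. PLK2 for WT p53 after Tet stood at 99.5 by pileup and at 99.6 by fold enrichment. Taking the best 20-bp stretch near the summit gave GADD45A RE 2 0 G/C bps in place of 1 and left the other 5 REs as they were. A search around the summit with a spacer between half-sites, chosen after seeing the data, lowered its mismatches from 5 to 0, and the same search without a spacer to 4. The causes were not tested. Each condition rests on 1 library. The fragment length used in peak calling differed between the Tet-treated WT library and the others, and its part in the differences between lists was not tested. No paired analysis was possible because each condition has 1 library.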
